A study of Mus musculus with 16 samples.

Results

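Basement membrane genes were followed in FAPs grown in culture. FAPs, or fibro/adipogenic progenitors, are resident mesenchymal cells of muscle and can give rise to both fibroblasts and fat cells. The genes were 10 members fixed by name, namely Col4a1 and Col4a2 of collagen IV, Col15a1 and Col18a1 of the multiplexin collagens, the laminin chains Lama2, Lama4, Lamb1 and Lamc1, the nidogen Nid1 and the perlecan gene Hspg2. Every probe annotated with one of these symbols was taken, which gave 12 of the 25697 probes on the arrays and 10 of the 16593 genes with a probe. Col18a1 had 3 probes and every other member 1. The choice used no measured value, although it was made with earlier results of these data known.

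All mice were Balb/cJ. The groups were Il4ra knockout FAPs (IL4RA -/-, without the interleukin-4 receptor alpha chain) given recombinant IL4, knockout FAPs given vehicle, wild-type FAPs given recombinant IL4 and wild-type FAPs given vehicle, with 4 arrays in each and 16 in all. The series text calls the arrays of a group biological replicates, and the labels do not say whether each stands for 1 mouse or for pooled mice. How much IL-4 was added and for how long, how the cells were sorted, the mice's age and sex, and the chip of each array are not given in the sources used here. The targeted gene itself gave no check of the genotypes, because no symbol in the annotation read Il4ra.

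Basement membranes are thin sheets of extracellular matrix that surround muscle fibres, adipocytes, nerves and capillaries. Laminin heterotrimers, each with an alpha, a beta and a gamma chain, form a first network on the cell surface, and collagen IV, built mostly from alpha1 and alpha2 chains, forms a second one that gives the sheet its strength. Nidogen and perlecan link the networks, and collagens XV and XVIII connect the sheet to the matrix around it. In muscle, fibroblastic cells such as FAPs are a main source of these proteins.

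Arrays carry no read depth, and their number limits the precision. Values are normalized intensities read as log2, and they run from 7.72 to 14.77 with a median of 7.85 on every array. Of the probes, 57% had a mean within 0.15 of the array minimum, a range in which a change of the transcript moves the value little. The distance of a probe above the minimum is therefore given for the members and for many cell type markers, but not throughout the other lists. By that measure 7 members lay at least 2 log2 units above the minimum: Col4a1 (4.53), Col4a2 (4.27), Hspg2 (3.80), Nid1 (3.17), Col15a1 (2.34), Lamc1 (2.34) and the brightest Col18a1 probe (2.15). The probes for Lama2 (0.31), Lama4 (0.16) and Lamb1 (0.16) lay close to it. For those 3 laminin chains the arrays could show only large changes. On the first principal component (60.3% of the variance of all probes) the scores were 18.71 to 20.81 for wild type with IL-4 and -8.15 to -4.10 for all other arrays. Within groups the arrays correlated at r = 0.9943 to 0.9976 over all probes over 24 pairs. Of 9 measured FAP markers, Thy1 (4.08), Dcn (4.17), Col1a1 (3.62) and Pdgfra (2.68) lay more than 2 log2 units above the minimum, Col3a1 (1.85), Hic1 (1.59) and Lum (0.82) lay lower, and Dpp4 (0.24) and Cd34 (0.22) lay close to it.

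Col4a1 and Col4a2 lie head to head on mouse chromosome 8, Col4a1 on the minus strand (chr8:11198423-11312889 in GRCm38.p6) and Col4a2 on the plus strand (chr8:11312805-11449287). In the RefSeq promoter table of that build their start sites are at 11312826 and 11312805, 21 bases apart, so their windows overlap. A stretch from that overlap is shown because both genes fell with IL-4. The 30 bases at chr8:11312792-11312821 (plus strand) include the Col4a2 start and end short of the Col4a1 start. They hold a CTC box (CCCTCCCC) and a GC box (GGGCGG), marked in capitals.
Col4a1/Col4a2: CCCTCCCCtcggcagtgcgcGGGCGGcgtc

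Of the other members that passed in wild type with IL-4, those with an entry in that table are Col15a1 (chr4:47207655-47313167), Col18a1 (chr10:77052178-77166530) and Nid1 (chr13:13437602-13512275). The 250 bases before each start site are shown to set these genes, which fell in the same samples, side by side. Capitals mark the GC box (GGGCGG), the CCAAT box and the CTC box on either strand. The Col15a1 window (chr4:47207762-47208011, plus strand) lies inside the annotated gene, which begins further upstream. Col18a1 has 2 start sites in the table, one with the window chr10:77166531-77166780 and the other with chr10:77113706-77113955, both on the minus strand, and the Nid1 window is chr13:13437352-13437601 on the plus strand.
Col15a1: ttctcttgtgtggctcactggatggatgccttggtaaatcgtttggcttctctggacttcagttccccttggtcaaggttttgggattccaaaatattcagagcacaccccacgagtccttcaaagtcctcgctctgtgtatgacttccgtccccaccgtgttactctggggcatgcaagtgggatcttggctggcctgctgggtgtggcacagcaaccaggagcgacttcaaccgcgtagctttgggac
Col18a1, upstream start: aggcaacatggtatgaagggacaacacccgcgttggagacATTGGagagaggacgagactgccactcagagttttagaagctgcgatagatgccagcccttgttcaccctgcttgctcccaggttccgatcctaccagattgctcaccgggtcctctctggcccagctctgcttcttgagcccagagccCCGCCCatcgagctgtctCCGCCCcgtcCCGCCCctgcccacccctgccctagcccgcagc
Col18a1, downstream start: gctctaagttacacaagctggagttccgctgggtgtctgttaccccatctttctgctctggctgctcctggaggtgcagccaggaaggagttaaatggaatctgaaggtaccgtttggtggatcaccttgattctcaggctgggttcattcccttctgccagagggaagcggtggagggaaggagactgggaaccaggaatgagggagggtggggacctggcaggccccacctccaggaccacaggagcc
Nid1: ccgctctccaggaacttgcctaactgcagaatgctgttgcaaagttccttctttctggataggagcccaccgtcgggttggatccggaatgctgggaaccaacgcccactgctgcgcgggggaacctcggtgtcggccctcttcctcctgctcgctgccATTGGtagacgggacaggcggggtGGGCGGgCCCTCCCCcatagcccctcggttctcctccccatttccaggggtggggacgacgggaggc

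The table held 9 windows of 300 bases (250 before and 50 after the start) for 8 of the 10 members, with none for Lama4 and Lamc1. Both strands were searched. The GC box was in 7 of the 9 windows, against 35.7% of all 32851 windows in the table. The CCAAT box was in 5 of the 9 (37.4% of all windows), the CTC box in 3 (10.8%) and the TATA box (TATAAA) in 0 (13.6%). The windows of Col4a1 and Col4a2 overlap, and the CTC box and GC box of the stretch shown above count for both. The CTC matches of these windows are thus the same bases, and so are those GC matches. Of motifs bound by STAT proteins, the one with 3 free bases between TTC and GAA was in 0 of the 9 windows (8.3% of all), and the one with 4 free bases, the spacing that STAT6 prefers, was in 0 (6.95%). The windows of Col15a1 and of the downstream Col18a1 start held none of the 6 motifs searched. A match describes letters in a window, and no match says only that these letters are not there.

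The first comparison asked what IL-4 does to basement membrane genes in wild-type FAPs. IL-4 lowered 6 of the 10 members and raised 0. The largest falls were in the collagens: Col18a1 fell to 0.506 times, Col15a1 to 0.53 times, Col4a1 to 0.556 times and Col4a2 to 0.614 times the vehicle level. Nid1 and Lamc1 fell less, to 0.80 and 0.89 times, and Hspg2, Lama2, Lama4 and Lamb1 did not pass an adjusted p of 0.05 in limma. Of all genes with a probe, 8.79% were lower at this threshold (of all probes, 13.7% passed in either direction), and of the 1963 probes at least 2 above the array minimum, where 7 members lie, 25.8% were lower. The median log2 change of the members was -0.25, against 0.00 over all genes. In bulk RNA of a culture, fewer cells of a type and less RNA per cell cannot be told apart.

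**Figure D1:**
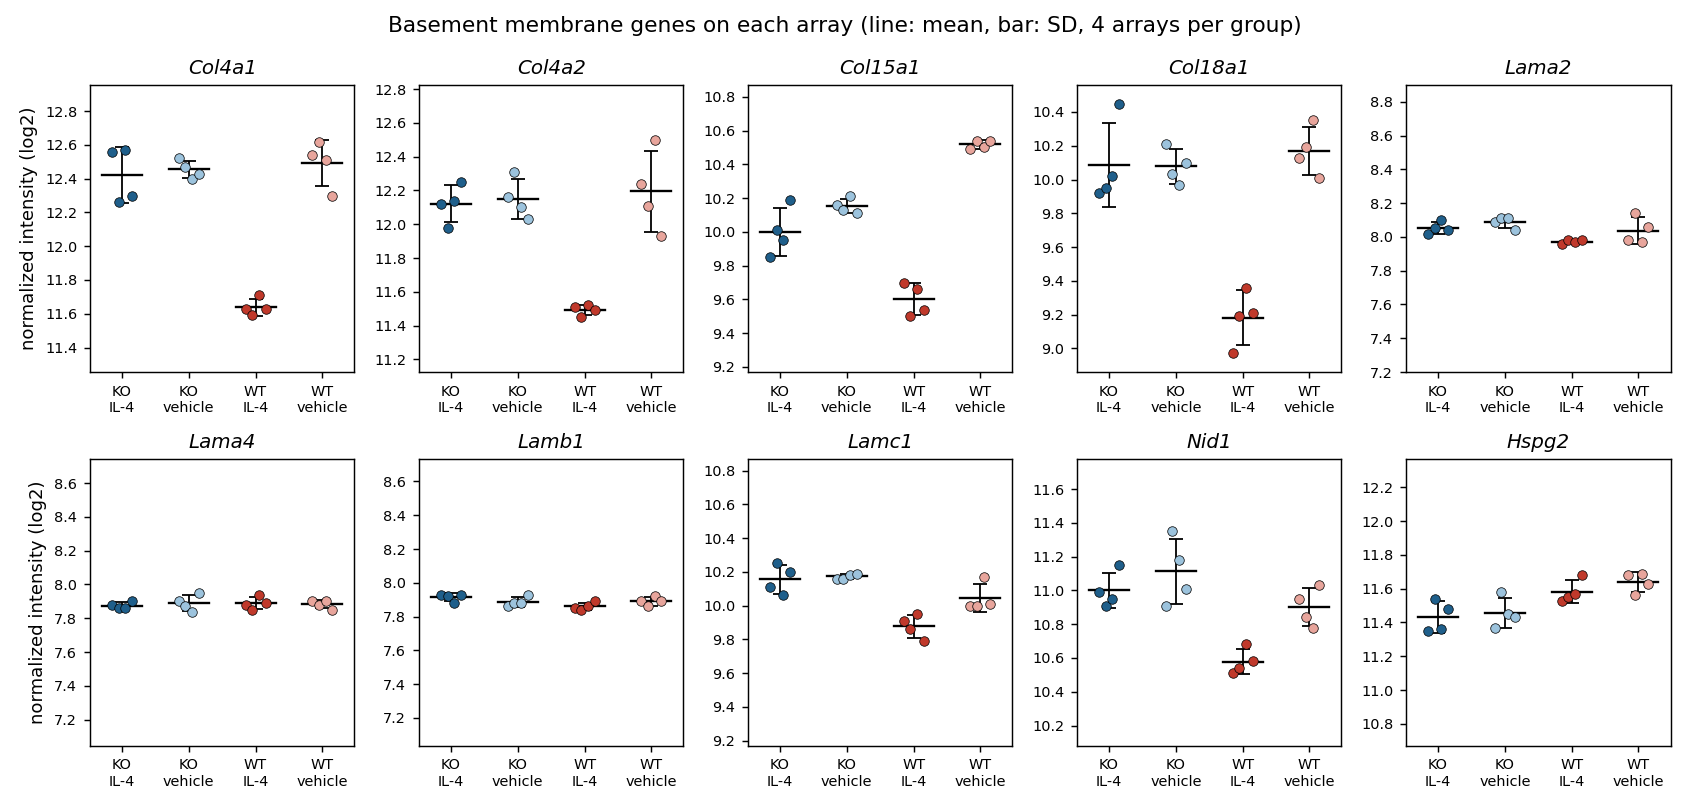
Normalized intensity (log2) of each member on each of the 16 arrays, through its brightest probe, with the group mean (line) and SD (bar) of 4 arrays; every panel spans 1.7 log2 units around its own centre. For Col4a1, Col4a2, Col15a1, Col18a1, Lamc1 and Nid1 the 4 wild-type IL-4 arrays lie below all 4 wild-type vehicle arrays, while Lama2, Lama4 and Lamb1 stay near the array minimum in all groups.

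Col4a1 encodes the alpha1 chain of collagen IV, the main network-forming collagen of basement membranes. It read 11.63, 11.59, 11.71 and 11.63 on the wild-type IL-4 arrays, against 12.54, 12.62, 12.51 and 12.30 on the wild-type vehicle arrays. The groups did not overlap, and the highest IL-4 array lay below the lowest vehicle array. The log2 change was -0.85 ± 0.07 (SE, n = 4 arrays per group; limma adjusted p = 1.17e-06).

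Col4a2 encodes the alpha2 chain, which assembles with alpha1. It read 11.51, 11.45, 11.52 and 11.49 with IL-4, against 12.24, 12.11, 12.50 and 11.93 with vehicle in wild type. The IL-4 arrays lay within 0.07 of each other while the vehicle arrays spread over 0.57, without overlap. The log2 change was -0.70 ± 0.10 (SE; limma adjusted p = 8.97e-05). The 95% confidence intervals of the partner chains overlapped and ran from -1.01 to -0.69 for Col4a1 and from -0.91 to -0.50 for Col4a2.

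Col15a1 encodes collagen XV, a proteoglycan that bridges the basement membrane to collagen fibrils in muscle and vessels. With IL-4 it read 9.70, 9.50, 9.66 and 9.54, against 10.49, 10.54, 10.50 and 10.54 with vehicle. The vehicle arrays were tight (SD 0.03) and the groups stood well apart. The log2 change was -0.92 ± 0.06 (SE; limma adjusted p = 4.01e-08), which gave Col15a1 the smallest p among the members.

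Col18a1 encodes collagen XVIII, whose C-terminal fragment is endostatin. Its brightest probe read 8.97, 9.19, 9.36 and 9.21 with IL-4, against 10.13, 10.19, 10.35 and 10.01 with vehicle. This was the largest fall among the members, -0.98 ± 0.11 (SE; limma adjusted p = 1.77e-05), with no overlap. The other 2 Col18a1 probes were dimmer, 0.27 and 0.11 above the array minimum. The first of them fell by 0.16 ± 0.02 (limma adjusted p = 0.00025), and the second, at 7.81 ± 0.04 with IL-4 and 7.86 ± 0.02 with vehicle (SD, n = 4), did not pass (limma adjusted p = 0.0646). All 3 probes thus had a negative change, and with the mean of the 3 probes in place of the brightest one the change was -0.40, still past the threshold. Which of the start sites each probe reads was not given in the sources used here.

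Nid1 encodes nidogen-1, which binds both laminin gamma1 and collagen IV. It read 10.51, 10.54, 10.68 and 10.58 with IL-4, against 10.95, 10.84, 10.78 and 11.03 with vehicle. The groups did not overlap, by a gap of 0.10, and the log2 change was -0.32 ± 0.08 (SE; limma adjusted p = 0.0158). This call ended without wild-type vehicle array 4 (limma adjusted p = 0.0564).

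Lamc1 encodes the laminin gamma1 chain, the gamma chain of most laminins. It read 9.91, 9.86, 9.95 and 9.79 with IL-4, against 10.17 on vehicle array 3 and at most 10.01 on the other 3 vehicle arrays. The groups did not overlap, but the gap between them was 0.05. The log2 change was -0.17 ± 0.05 (SE; limma adjusted p = 0.0228). The call ended without wild-type vehicle array 3 (limma adjusted p = 0.0701), without wild-type IL-4 array 6 (0.0623) or 8 (0.0796), with only the 2 groups compared (0.0544) and with a trended, robust variance model (0.081).

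Hspg2 encodes perlecan, the large heparan sulfate proteoglycan of basement membranes, and its probe was one of the brightest of the members. It read 11.53, 11.55, 11.57 and 11.68 with IL-4, against 11.68, 11.56, 11.69 and 11.63 with vehicle. The groups overlapped, and the change was -0.06 with a 95% confidence interval from -0.17 to 0.05 (limma adjusted p = 0.604). That interval does not reach the changes of the collagens. It holds for the reading of this probe, and how closely the probe follows the transcript was not tested.

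Of the remaining laminin chains, Lama2 (alpha2, the chain of the muscle fibre laminin whose loss causes muscular dystrophy) changed by -0.07 (interval -0.14 to 0.00; limma adjusted p = 0.246). Lama4 (alpha4, a chain of vascular and adipocyte basement membranes) changed by 0.01 (-0.04 to 0.06; adjusted p = 0.945), and Lamb1 (beta1) by -0.03 (-0.07 to 0.01; adjusted p = 0.408). In all 3 the groups overlapped. Since these probes lay 0.16 to 0.31 above the array minimum, the intervals hold for the compressed values and do not bound the change of the transcripts.

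**Figure D2:**
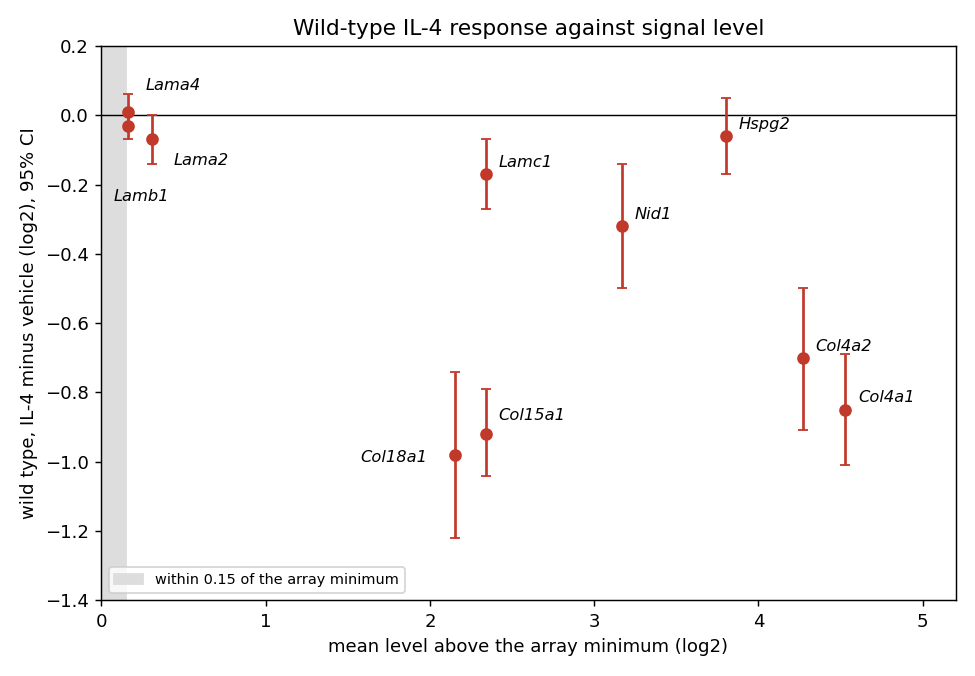
Log2 change with IL-4 in wild type (vertical axis, with the 95% confidence interval) against the mean distance of each member's brightest probe above the array minimum (horizontal axis, log2); grey marks the range within 0.15 of the minimum. Lama2, Lama4 and Lamb1 lie at 0.16 to 0.31 with changes near 0, while among the 7 brighter members the changes run from -0.98 for Col18a1 to -0.06 for Hspg2.

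No overlap between the wild-type groups was seen for 6 of the 10 members, against 16.3% of all probes. These were the same 6 genes that passed limma. Through the brightest probes the changes of the 4 collagens lay between -0.98 and -0.70, and those of Nid1, Lamc1 and Hspg2 between -0.32 and -0.06. Differences between members in the size of the change were not tested. At an adjusted p under 0.05 and at least 1.5-fold, 4 of the 10 members were lower, against 135 of all 25697 probes. All 4 were collagens, but the probes of Lama2, Lama4 and Lamb1 lay too near the array minimum for a fair comparison.

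Other basement membrane genes were taken from a list that did not include the members. Of 29 measured, 7 fell and 1 rose with IL-4 in wild type, with a median log2 change of -0.01. Many of the 29 lay near the array minimum, such as Col4a3 and Npnt (7.79 and 7.83 with vehicle), so that median says little. Among those well above it, Nid2, Agrn, Fbln1, Fbln2 and Smoc1 fell, while Lamb2 and Sparc did not pass. Smoc1, a calcium-binding glycoprotein of basement membranes, fell by 1.07 ± 0.06 (SE; limma adjusted p = 1.66e-08), with means of 9.77 with IL-4 and 10.84 with vehicle. Agrn, the gene of agrin, a heparan sulfate proteoglycan that binds laminin and dystroglycan, fell by 0.65 ± 0.10, and Fbln2, a fibulin that binds nidogen, fell by 0.57 ± 0.07. Nid2, the paralog of Nid1, also fell, by 0.55 ± 0.07 (limma adjusted p = 4.02e-05), and Col4a5, another collagen IV chain, by 0.12 ± 0.02 near the array minimum. The only rise, by 0.08 ± 0.02 near the array minimum, was that of Tinagl1, a tubulointerstitial nephritis antigen-like protein.

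Genes that fold and modify collagen and its partners rose more often than they fell. Of 25 measured genes of collagen and basement membrane biosynthesis, 12 rose and 2 fell with IL-4 in wild type (median log2 change 0.06). Over all genes 7.14% rose, and of the probes at least 2 above the array minimum 18.8% rose, which are also the shares to set beside the rises in the proteases and receptors that follow. Serpinh1, the collagen chaperone HSP47, averaged 10.01 with IL-4 and 9.29 with vehicle, a rise of 0.72 ± 0.08 (SE; limma adjusted p = 2.09e-05). Sulf1, a sulfatase that trims heparan sulfate chains such as those of perlecan, rose by 0.94 ± 0.06, and Fkbp14, a prolyl isomerase of the endoplasmic reticulum, rose by 0.60 ± 0.07. Plod2, a collagen lysyl hydroxylase, fell by 0.49 ± 0.07 (adjusted p = 0.000178), and Tmem38b, an ion channel of the endoplasmic reticulum, fell by 0.47 ± 0.05.

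Among 22 measured proteases and inhibitors that act on basement membranes, 4 rose and 4 fell (median -0.01). Plau, the urokinase plasminogen activator, rose by 1.47 ± 0.09 (SE), Bmp1, a protease that trims procollagens and laminin chains, by 1.09 ± 0.08, and the inhibitor Timp1 by 0.45 ± 0.08. Mmp3, the matrix metalloproteinase stromelysin-1, fell by 0.86 ± 0.08, the inhibitor Timp3 by 0.29 ± 0.05 and the gelatinase Mmp9 by 0.25 ± 0.06. Of 21 receptors of basement membrane proteins, 3 rose and 0 fell (median -0.02): the syndecans Sdc2 and Sdc3, each by 0.21 ± 0.06, and the sarcoglycan Sgcb by 0.16 ± 0.05. Limma adjusted p-values of these receptors ran from 0.0206 for Sdc3 to 0.0388 for Sgcb. Several genes of both lists lay near the array minimum, where no call says little. Examples are the receptors Itga2, Itga6 and Utrn and the proteases Mmp10, Plat and Hpse, with wild-type means of 7.80 to 7.85.

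**Figure D3:**
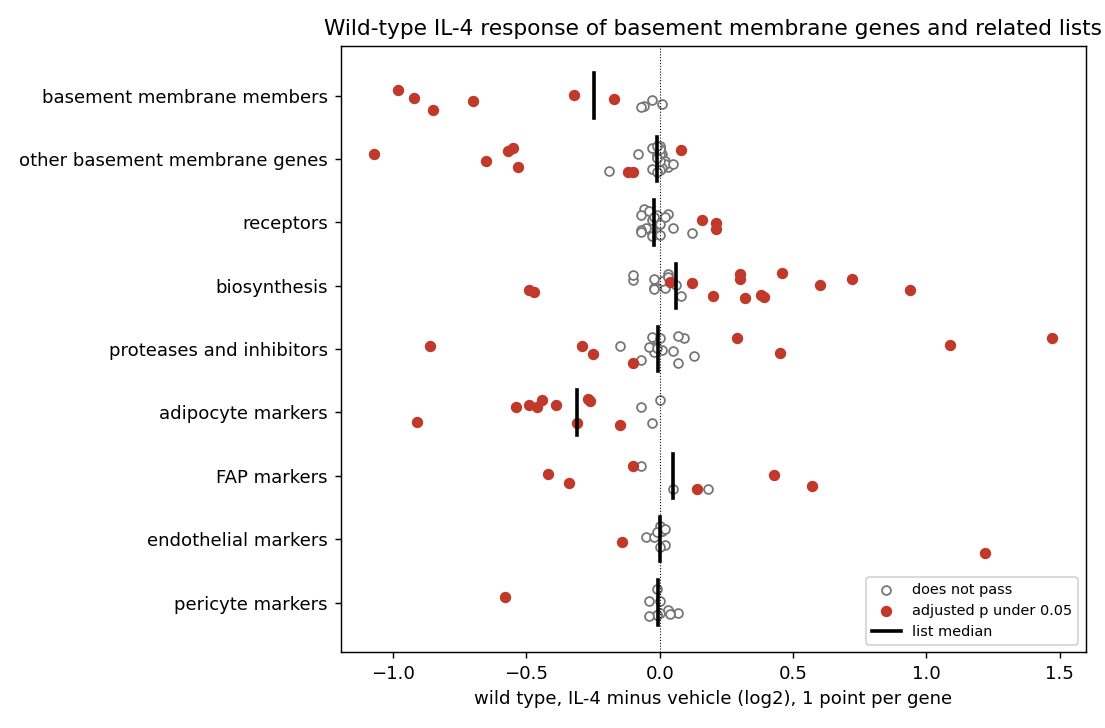
Log2 change with IL-4 in wild type (horizontal axis) for each measured gene of the members, of 4 related lists and of 4 marker lists (rows), with 1 point per gene, filled where the adjusted p is under 0.05, and the list median as a bar. The members (median -0.25) and the adipocyte markers (-0.31) lie to the left, while 12 of the 25 biosynthesis genes are filled to the right of 0.

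Markers of adipocytes fell in the same arrays as the members. Of 13 measured, 10 fell and 0 rose (median log2 change -0.31), among them Dgat2, an enzyme of triglyceride synthesis, by 0.91 ± 0.09 (SE), Car3, a carbonic anhydrase, by 0.54 ± 0.14, Pnpla2, a triglyceride lipase, by 0.49 ± 0.03, Adipoq, the gene of adiponectin, by 0.44 ± 0.08, and the lipid droplet protein Plin1 by 0.39 ± 0.08. Of all genes 8.79% were lower, and of the probes at least 2 above the array minimum, where several of these markers lie, 25.8% were lower. These are also the shares to set beside the falls in the other lists. The mean of the 13 markers lay at 10.04 to 10.08 on wild-type IL-4 arrays and at 10.36 to 10.42 on wild-type vehicle arrays. Retn lay within 0.15 of the array minimum, and Fabp4 (0.17) and Lep (0.16) just above. Adipocytes make collagen IV, collagen XV and laminin alpha4, and the part of these cells in the members' changes was not tested.

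Of 9 FAP markers 3 rose and 3 fell (median 0.05), with Thy1 up by 0.57 ± 0.07, Hic1 by 0.43 ± 0.04 and Cd34 by 0.14 ± 0.02. Lum fell by 0.42 ± 0.05, Dcn by 0.34 ± 0.08 and Dpp4 by 0.10 ± 0.03. Their mean lay at 9.75 to 9.86 with IL-4 and 9.72 to 9.81 with vehicle. The fibrillar collagen genes among them, Col1a1 (0.18 ± 0.12; limma adjusted p = 0.428) and Col3a1 (0.05 ± 0.14; adjusted p = 0.914), did not pass.

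Endothelial cells and pericytes are other makers of basement membrane. The defining endothelial genes Pecam1, Cdh5, Tie1, Emcn, Esam, Vwf and Robo4 lay 0.08 to 0.09 above the array minimum, so 7 of 11 markers were near it. The rest of the list lay higher, with Kdr at 0.16, Flt1 at 0.42, Tek at 0.55 and Egfl7 at 0.65. The mean of the 11 was 7.99 to 8.03 with IL-4 and 7.90 to 7.92 with vehicle in wild type, where Flt1, a receptor of vascular endothelial growth factor, rose by 1.22 ± 0.06 (SE) and Tek fell by 0.14 ± 0.04. Of 12 pericyte and smooth muscle markers 5 were near the minimum, Rgs5 among them. Acta2 lay far above it (6), and Pdgfrb (1.24) and Mcam (1.17) lay clearly above it. Notch3 (0.25), Des (0.21), Abcc9 (0.2) and Cspg4 (0.19) lay just above. The mean of the 12 lay at 8.51 to 8.54 with IL-4 and 8.55 to 8.60 with vehicle, with 1 fall, that of Mcam by 0.58 ± 0.05. Of the markers of myogenic cells, of macrophages and leukocytes, and of Schwann cells and tenocytes, 7 of 8, 7 of 8 and 3 of 4 were near the minimum, and 0 passed in this comparison.

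The second comparison asked whether basement membrane genes respond to IL-4 without the receptor. In the knockout 0 of the 10 members passed in limma, as did 0 of all 25697 probes (0%). With no adjustment 1439 probes had a p under 0.05. Among the members only Col15a1 did, which read 9.85, 10.01, 9.95 and 10.19 on knockout IL-4 arrays, against 10.16, 10.13, 10.21 and 10.11 on knockout vehicle arrays. Knockout IL-4 array 4 lay within the vehicle range and the other 3 below it. The log2 change was -0.15 with a 95% confidence interval from -0.28 to -0.03 before adjustment (limma adjusted p = 0.863). The groups overlapped for all 10 members, against 2.81% of all probes without overlap.

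The other members had knockout intervals that included 0. Col4a1 read 12.56, 12.26, 12.57 and 12.30 with IL-4, against 12.52, 12.47, 12.40 and 12.43 with vehicle in the knockout, a change of -0.04 (interval -0.20 to 0.12). Col4a2 read 12.12, 11.98, 12.14 and 12.25 with IL-4, against 12.16, 12.31, 12.10 and 12.03 with vehicle, a change of -0.03 (-0.23 to 0.17). Both genes had overlapping groups. Col18a1 read 9.92, 9.95, 10.02 and 10.45 with IL-4, against 10.21, 10.03, 9.97 and 10.10 with vehicle, a change of 0.01 (-0.23 to 0.25). Nid1 changed by -0.11 (-0.29 to 0.07) and Lamc1 by -0.02 (-0.12 to 0.08). For Col4a1, Col4a2, Col15a1 and Col18a1 these intervals stop short of the wild-type changes.

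**Figure D4:**
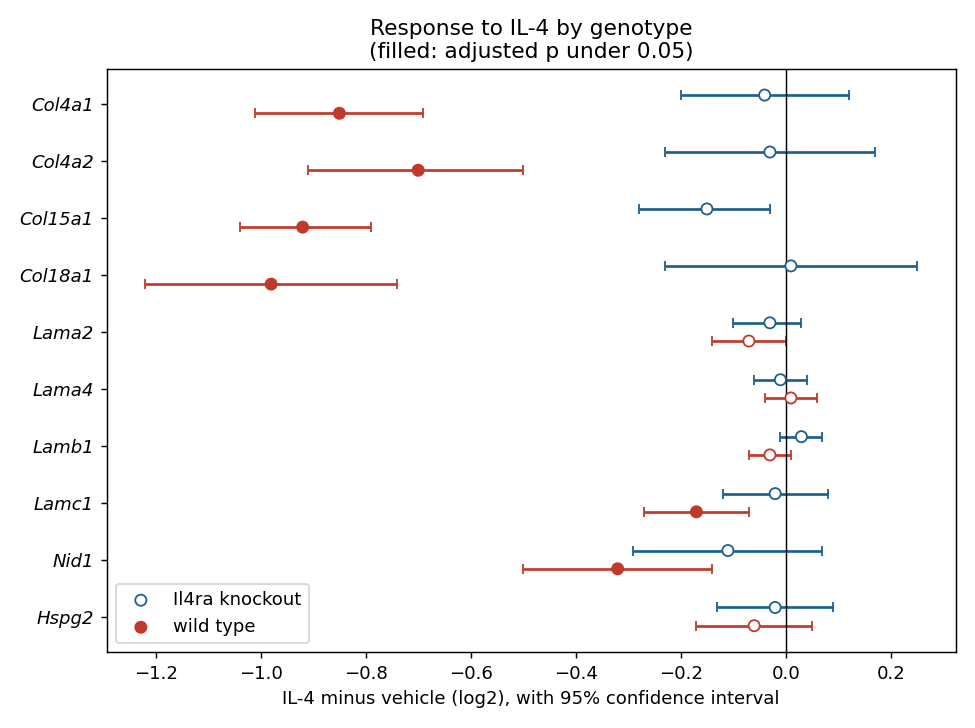
Log2 change with IL-4 (horizontal axis, with the 95% confidence interval) of each member in Il4ra knockout and wild-type FAPs, 4 arrays per group; filled points pass an adjusted p of 0.05. The knockout points lie between -0.15 and 0.03 and all are open, while 6 wild-type points are filled and lie between -0.98 and -0.17.

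The difference of the responses was tested as an interaction, taken as wild type minus knockout, so that a negative value means a deeper fall in wild type. It passed for 4 of the 10 members, all collagens and all negative, against 5.27% of all genes with a lower change in wild type (8.39% of all probes in either direction). Col18a1 changed by 0.01 in the knockout and by -0.98 in wild type, a difference of -0.99 ± 0.16 (SE; limma adjusted p = 0.000796). Col4a1 differed by -0.81 ± 0.11 (adjusted p = 0.000121), Col15a1 by -0.76 ± 0.08 (2.42e-05) and Col4a2 by -0.67 ± 0.13 (0.0047). Among the probes at least 2 above the array minimum, 16.6% had a lower change in wild type. In the same test 7 of the 29 other basement membrane genes and 7 of the 13 adipocyte markers had a lower change in wild type and 0 of either list a higher one, and the part of the adipocyte markers in the members' difference was not tested.

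Nid1 and Lamc1, which passed in wild type, did not pass this test. Nid1 changed by -0.11 in the knockout and by -0.32 in wild type, a difference of -0.21 (interval -0.46 to 0.04; limma adjusted p = 0.408). Lamc1 changed by -0.02 and -0.17 in the same order, a difference of -0.15 (-0.29 to -0.01; adjusted p = 0.226). Whether their responses differ by genotype was not detectable with these arrays. The interaction for Nid1 passed without knockout vehicle arrays 2 and 3 (-0.36, limma adjusted p = 0.0457), which left only arrays 1 and 4 in that group. On principal component 3 (5.39% of the variance) this pair scored -6.95 and -7.52, beside 0.06 and 3.68 for the other knockout vehicle arrays. The pair also held the highest Nid1 readings of that group, 11.35 and 11.18, against 10.91 and 11.01 on arrays 1 and 4.

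The genotypes were next compared without IL-4. The chip of each array is not given. Differences between genotypes, here, under IL-4 and in the closing observations, could therefore not be told apart from differences between chips. Under vehicle 1 of the 10 members differed, Col15a1, which was lower in the knockout. Of all genes 1.85% were lower at this threshold, of the probes at least 2 above the minimum 6.78% were lower, and of all probes 2.69% passed in either direction. Col15a1 read 10.16, 10.13, 10.21 and 10.11 in the knockout, against 10.49, 10.54, 10.50 and 10.54 in wild type. The groups lay 0.28 apart at their nearest arrays. The log2 difference was -0.36 ± 0.06 (SE; limma adjusted p = 0.00387), or 0.778 times the wild-type level. It was the only member whose groups did not overlap here, against 8.06% of all probes.

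Hspg2 read 11.37, 11.58, 11.45 and 11.43 in knockout vehicle arrays, against 11.68, 11.56, 11.69 and 11.63 in wild-type vehicle arrays. Knockout array 2 overlapped the wild-type range. The log2 difference was -0.18 ± 0.05 (SE; limma adjusted p = 0.0792), and it passed without that array (-0.22; adjusted p = 0.0341) and when only the brighter part of the probes was tested (adjusted p = 0.044). Nid1 (0.21, interval 0.04 to 0.39; adjusted p = 0.252) and Lamc1 (0.13, 0.03 to 0.23; adjusted p = 0.206) had positive differences that did not pass. Col4a1 (-0.03, -0.19 to 0.13), Col4a2 (-0.04, -0.25 to 0.16) and Col18a1 (-0.09, -0.33 to 0.15) had intervals that included 0.

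The same contrast in the related lists gave 3 higher and 1 lower of the 29 other basement membrane genes. Fbln1, a fibulin of basement membranes, was higher by 0.55 ± 0.10 (SE; limma adjusted p = 0.01), with means of 11.19 in knockout and 10.64 in wild-type vehicle arrays. Nid2 was higher by 0.40 ± 0.07 and Smoc1 by 0.31 ± 0.06, while Lamb3 was lower by 0.13 (log2 difference -0.13 ± 0.02) close to the array minimum. Of the 13 adipocyte markers 2 were lower in the knockout, Lipe (-0.33 ± 0.05) and Pnpla2 (-0.24 ± 0.03), and 0 were higher. The mean of the 13 lay at 10.33 to 10.39 in knockout and 10.36 to 10.42 in wild-type vehicle arrays.

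The fourth comparison set the genotypes side by side under IL-4. It shares its wild-type IL-4 arrays with the first comparison and its knockout arrays with the second, so its results are not independent of them. Of the 10 members 6 were higher in the knockout and 0 lower, the same 6 that IL-4 lowered in wild type, against 9.11% of all genes and 25.6% of the probes at least 2 above the minimum that were higher, and 14.9% of all probes called in either direction. Col18a1 averaged 10.08 ± 0.25 in the knockout and 9.18 ± 0.16 in wild type (SD, n = 4 each; log2 difference 0.90 ± 0.11, SE). Col4a1 averaged 12.42 ± 0.17 and 11.64 ± 0.05 in the same order (0.78 ± 0.07), and Col4a2 12.12 ± 0.11 and 11.49 ± 0.03 (0.63 ± 0.10). Col15a1 had a smaller difference of 0.40 ± 0.06, beside its lower level in knockout vehicle arrays, with 9.85 to 10.19 in the knockout and 9.50 to 9.70 in wild type under IL-4. Nid1 was higher by 0.42 ± 0.08 and Lamc1 by 0.28 ± 0.05. Limma adjusted p-values of the 6 ran from 2.47e-06 for Col4a1 to 0.00217 for Nid1. Groups did not overlap for 7 of the 10 members, against 17.2% of all probes. Beside the 6 called, this held for Lama2, whose probe lay 0.31 above the array minimum. Its gap between groups was 0.04, and it did not pass (limma adjusted p = 0.122). Hspg2 had a negative difference, -0.15 (interval -0.26 to -0.04), that did not pass (limma adjusted p = 0.0744).

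Across the 4 groups the order of the mean levels took 4 forms among the 7 brighter members. Col4a1, Col4a2 and Col15a1 were highest in wild-type vehicle, then knockout vehicle, then knockout IL-4, and lowest in wild-type IL-4. For Col4a1 and Col4a2 only the step between knockout IL-4 and wild-type IL-4 passed limma, and for Col15a1 the step between knockout vehicle and wild-type vehicle passed as well. Col18a1 had the same highest and lowest groups, with knockout IL-4 above knockout vehicle by less than their spread. Nid1 and Lamc1 were highest in knockout vehicle, then knockout IL-4, then wild-type vehicle, and lowest in wild-type IL-4; their step between knockout IL-4 and wild-type vehicle was not tested. Hspg2 was highest in wild-type vehicle, then wild-type IL-4, then knockout vehicle and knockout IL-4, and 0 of its differences passed in any of the 5 contrasts.

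Genes most like the members were ranked by the root mean square distance over 3 differences of group means (knockout IL-4, knockout vehicle and wild-type IL-4, each minus wild-type vehicle), among 4318 brighter genes and without the members. For Col4a1 the nearest were Fam110c (distance 0.023), Echdc2 (0.033) and Il1rn, the interleukin-1 receptor antagonist (0.043). Fam110c and Il1rn were also among the 3 nearest to Col18a1 (0.064 and 0.053), with Slc24a3 (0.087). Col4a2 was nearest to Selenbp1 (0.034), Sipa1l1 (0.041) and Reep6 (0.045). Col15a1 was nearest to Mgst3, a microsomal glutathione S-transferase (0.057), Tenm4 (0.067) and Ffar2, a receptor for short-chain fatty acids (0.085). Nid1 was nearest to Id1, an inhibitor of basic helix-loop-helix factors (0.024), Nfe2l1 (0.029) and Hmox1, haem oxygenase 1 (0.035). Among the members above the floor, Col4a1 was closest to Col4a2 (0.084) and Col18a1 (0.086). The distances describe 4 group means and carry no test.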

How the data were processed

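Cy3-labelled RNA of FAPs was measured on 16 Illumina MouseRef-8 v2.0 arrays, per the labels' protocols. The deposited values, read as log2, were normalized between arrays by the authors: once sorted, the arrays match to within 0.00059. The software, the log base and any background correction are not given in the sources used here, and another transform that nears log2 for bright probes would look the same.

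Groups came from the sample titles. Probes were named by the platform annotation, updated by Entrez number: 23978 had 1 symbol, 0 several and 1719 none, and 0 symbols changed. Genes were counted through their brightest probe. The members and gene lists were chosen with earlier results of these data known. Beyond the members, the text names per list the 3 passing genes that rose most and the 3 that fell most, and of marker lists also defining and passing markers. Nid2 and Col4a5 in the wild-type response, as relatives of members, and the comparison with probes at least 2 above the minimum were added after values were seen. So were further list genes named for their level near or above the minimum.

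With R 4.3.3 and limma 3.58.1, group means were fitted over the 16 arrays and 25697 probes with moderated variances (12 residual degrees of freedom) and 5 contrasts, two-sided p-values and Benjamini-Hochberg adjustment over all probes (threshold 0.05). The labels do not say whether equal replicate numbers pair the knockout arrays, and the arrays were fitted as unpaired. Deviations from the group means correlated at -0.22 to 0.14 for same-numbered knockout arrays. For different numbers they correlated at -0.22 to 0.30. With so few arrays this cannot decide whether the arrays are paired. In data simulated for the wild-type response over 25697 probes, recovery was 90% for a log2 change of 0.25, 98.5% for 0.5 and 100% for 1, and 36 unchanged probes were called. For each size 200 probes were changed, while 3510 were called in the wild-type response, and the adjustment depends on how many change. Noise was drawn independently for each probe. The changed probes were drawn at random, most of them near the array minimum where the spread is small. Recovery was not computed for bright probes alone. Promoter windows are RefSeq's, GRCm38.p6. Figures were drawn with matplotlib 3.10.9.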

Additional observations from a re-analysis of the deposited data

Results flagged for a closer look

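Col4a1, Col4a2, Col15a1 and Col18a1 responded to IL-4 differently in the 2 genotypes by the interaction test, with differences (wild type minus knockout) of -0.81, -0.67, -0.76 and -0.99 on the log2 scale, as given above.

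A single array stood apart within its group for 1 of 48 combinations of probe and group, where chance gives about 2.4 (1 in 20). Lamc1 read 10.17 on wild-type vehicle array 3, against at most 10.01 on the other 3 wild-type vehicle arrays. Without that array the wild-type change of Lamc1 was -0.13 in place of -0.17 and did not pass (limma adjusted p = 0.0701).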

How the results depend on the processing

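Over 50 member results (10 members in 5 contrasts), 1370 values from alternative settings were set beside the main fit. Of these, 1345 kept their direction where called and their side of the threshold, 14 lost the call, 11 gained it and 0 reversed. Most of the 50 results were not called in the main fit. Such a result counts as kept when it stays uncalled, and only called results could reverse. The falls of Col4a1, Col4a2, Col15a1 and Col18a1 in wild type passed in all 28 settings. Not all of these settings could change the outcome. Repeated normalization and centring act on arrays that already match once sorted. Counting any probe of a gene can only add calls, and dropping knockout arrays leaves the wild-type means unchanged. The count of members called in wild type ranged from 4 to 6 (5 to 6 without single arrays), in the knockout it was 0 in every setting, for the interaction it was 4 or 5, under IL-4 it was 6 or 7 without single arrays, and under vehicle it was 1 or 2 without single arrays (2 without knockout vehicle array 2, which added Hspg2). Under vehicle the count was 2 in the brighter part of the probes and 0 at 1.5-fold, and under IL-4 it was 3 at 1.5-fold, since fewer probes are tested or a fold is asked for. With the replicate block the counts were 0 in the knockout, 4 for the interaction and 1 under vehicle, and this changed no member's call. No paired analysis was possible for the wild-type response or under IL-4 because those groups share no replicate numbers. Over all probes the counts at 0.05 and at 1.5-fold were 3510 and 343 in wild type, 2156 and 353 for the interaction, 690 and 22 under vehicle and 3830 and 393 under IL-4. At an adjusted p of 0.01 they were 1266 for the interaction and 245 under vehicle. For knockout minus wild type under vehicle, leaving out wild-type vehicle array 1, 2 or 4 gave 447, 426 or 456 probes, and there were 385 without knockout vehicle arrays 2 and 3, and 354 with the replicate block. In the knockout a trended, robust variance model called 1 probe, against 0. Under IL-4 Lamb1, higher in the knockout, passed without knockout IL-4 array 3, knockout vehicle array 4 or wild-type IL-4 array 8 (limma adjusted p 0.033, 0.0396 and 0.0376). Lama2, also higher, passed without wild-type vehicle array 2 or with only the groups compared (0.0346 and 0.0213). Hspg2, lower in the knockout, passed in the brighter probes or without knockout IL-4 or vehicle array 2 (0.0412, 0.0308 and 0.0457). The signal over background limits Lama2, Lama4 and Lamb1.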

Other observations

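Of 22 measured proteases and inhibitors that act on basement membranes, 6 were higher in the knockout under vehicle, 1 was lower and 15 did not pass. Over all genes 1.42% were higher and 1.85% lower, and of the probes at least 2 above the array minimum 5.09% were higher and 6.78% lower. Mmp3, which cleaves collagen IV, laminin and nidogen, averaged 11.72 in knockout and 9.82 in wild-type vehicle arrays (log2 difference 1.90 ± 0.08, SE; limma adjusted p = 1.12e-08). Mmp9 (0.47 ± 0.06) and Mmp11 (0.47 ± 0.07) were also higher, and the serine protease Htra1 was lower (-0.42 ± 0.06). Of 25 biosynthesis genes 4 were higher and 0 lower, led by the heparan sulfate polymerase subunit Ext2 (0.35 ± 0.06), the prolyl hydroxylase subunit P4ha2 (0.30 ± 0.07) and Sulf1 (0.29 ± 0.06). Of 21 receptors 1 was higher, the collagen receptor Ddr1 (0.13 ± 0.03), and 1 lower, the laminin-binding integrin chain Itga7 (-0.11 ± 0.02).

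Among other cell type markers under vehicle, Dcn (0.52 ± 0.08) and Hic1 (0.17 ± 0.04) of the FAP list were higher in the knockout, as was Cd14 (0.24 ± 0.05) of the macrophage list. Acta2 (-0.39 ± 0.07) and Mcam (-0.41 ± 0.05) of the pericyte and smooth muscle list were lower.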
